A study of Mus musculus with 14 samples.

Results

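C2C12 cells, an established line of mouse skeletal muscle myoblasts, spent 2 days in a medium with 4 added agents. Their RNA was compared with that of cells still in growth medium. The comparison rests on 4 of the 14 libraries, chosen by their labels: 2 from day 0 and 2 from day 2 in the medium called DM2. Growth medium held 20% fetal calf serum (FCS). DM2 held FCS at 10% and 4 added agents: the glucocorticoid dexamethasone at 0.5 µM, the phosphodiesterase inhibitor IBMX at 0.5 mM, insulin at 1 µg/ml, and rosiglitazone, which activates the nuclear receptor PPAR-gamma, at 2 µM. Less serum, the agents and 2 days of culture came together, so their parts in any difference from day 0 cannot be told apart here. The 3 other groups of 2 libraries each are used beside them, all of the same line: DM1 at day 2 (horse serum, HS, at 2% and no agents), DM3 at day 2 (HS at 2% with the agents of DM2) and DM2 at day 7. The labels number the replicates without saying that they were separate cultures, so p-values measure the spread between libraries, which may be technical.

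Each agent of DM2 acts on its own route into the nucleus. Dexamethasone binds the glucocorticoid receptor, which then binds DNA. IBMX blocks the breakdown of cyclic AMP, which activates protein kinase A and through it the factor CREB. Rosiglitazone activates PPAR-gamma, the main regulator of fat cell genes, and insulin signals through PI3 kinase and Akt, which hold the FoxO factors out of the nucleus. Myoblasts leave the cell cycle when mitogens are withdrawn, then express myogenin and the proteins of the contractile apparatus, and fuse into myotubes. Serum mitogens act through MAP kinase, which drives immediate early genes such as Fos and Egr1, and oppose that program.

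The 4 libraries held 23701812 to 28450159 counts (21907575 to 29784807 over all 14). Spearman correlations over the 15973 genes tested were 0.987 between the day 0 libraries and 0.993 between those of DM2 at day 2. Processed pseudogenes took 1.68 and 3.02% of counts at day 0 and 3.69 and 3.04% in DM2, and their part in the results was not tested beyond leaving libraries out. The summed level of 8 skeletal myoblast markers was 8505 and 7615 CPM (counts scaled by library size) at day 0 and 7738 and 6950 CPM in DM2. The most abundant members weigh most in such a sum, which hides changes of single markers. In the test described below 2 of the 8 were higher and 3 lower in DM2, with Chrna1 and Chrnb1 among the lower. Of 7 adipocyte markers 3 were at 0 in all 4 libraries. The sum of the 7, nearly all of it Fabp4, was 0.523 and 0.375 CPM at day 0 and 4.97 and 3.97 CPM in DM2. Summed leukocyte markers (7) read 1.43 and 1.57 CPM and then 2.85 and 3.09 CPM, and endothelial markers (5) 1.61 and 1.67 CPM and then 1.20 and 2.44 CPM. Epithelial markers (6) summed to 5.79 and 4.36 CPM at day 0, nearly all of it Krt14, and to 0.16 and 0.115 CPM in DM2. The 8 bone and cartilage markers summed to 138 and 145 CPM and then 141 and 165 CPM, and the 5 smooth muscle markers to 650.3 and 585 CPM and then 402 and 359.8 CPM. In bulk RNA, fewer cells of a type and less RNA per cell cannot be told apart.

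After 2 days in DM2 about as many genes stood above day 0 as below it. In edgeR's quasi-likelihood test 7935 of 15973 genes (49.7%) had an adjusted p (Benjamini-Hochberg) under 0.05 and are called changed, 3754 (23.5%) higher and 4181 (26.2%) lower. By at least 2-fold, 1588 (9.94%) were higher and 1333 (8.35%) lower. The libraries of the groups did not overlap for 11741 of the genes tested, of which 7934 were called. Nearly every called gene is among these, so where such a separation is stated below it adds nothing to the call. "Rose" and "fell" below are used only of called genes, and the shares above are the background for each list. Log2 fold changes are of CPM in DM2 at day 2 over day 0. The value after ± is an approximate standard error (SE) derived from the test statistic. For genes with few counts in a group, such as Hsd11b1 and Mmp3, it is smaller than counting error alone and overstates the precision.

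The 3 genes given as marks of these cells were all far above day 0. Rgs2, which speeds the shut-off of G proteins, read 0.314 and 0.238 CPM at day 0 and 62.8 and 54.9 CPM in DM2 (log2 7.71 ± 0.34). Prg4, which encodes the lubricating proteoglycan lubricin, read 1.22 and 1.70 CPM and then 264 and 346 CPM (log2 7.70 ± 0.38). Tsc22d3, the glucocorticoid-induced leucine zipper GILZ, read 38.1 and 33.4 CPM and then 595 and 560.1 CPM (log2 4.01 ± 0.11). Both DM2 libraries lay above both day 0 libraries for each of the 3, by a wide margin. Adjusted p was 1.05e-07 for Rgs2, 6.23e-07 for Prg4 and 5.48e-10 for Tsc22d3.

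The 12 largest rises held 10 genes beside Rgs2 and Prg4. Ctla2a (chr13:60934155-60936625, minus strand, GRCm38), an inhibitor of cysteine proteases, went from 4.64 and 4.43 CPM to 918 and 800.3 CPM (log2 7.56 ± 0.16). Its near copy Ctla2b went from 0.942 and 1.02 CPM to 47.2 and 39.6 CPM, and reads of the pair may have been split between them. Xdh, which makes uric acid, went from 3.77 and 3.61 CPM to 129 and 153 CPM (log2 5.25 ± 0.14). The inflammatory caspase Casp4 went from 1.4 and 1.29 CPM to 47.5 and 44.2 CPM (log2 5.09 ± 0.14), and the desmosomal linker periplakin, Ppl, from 0.698 and 0.647 CPM to 19.2 and 20.2 CPM. Hsd11b1, the enzyme that reactivates glucocorticoids inside cells, went from 0.279 and 0.273 CPM to 8.29 and 7.90 CPM (log2 4.85 ± 0.18). The prostaglandin F receptor Ptgfr (log2 4.70 ± 0.26), the zinc finger gene Zfr2 (4.68 ± 0.20) and the interferon-inducible gene Ifi207 (4.50 ± 0.28) completed the 12, with the glutamate transporter Slc1a3. Slc1a3 rose by log2 5.93 ± 0.45 from 0.454 and 0.136 CPM, and by 7.01 without day 0 replicate 1 and 5.31 without replicate 2. In each of these genes the DM2 libraries lay together above both day 0 libraries.

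The 12 largest falls ran from Serpinb2 to Dynap. Serpinb2, an inhibitor of plasminogen activators, went from 14.7 and 14.3 CPM to 0.401 and 0.267 CPM (log2 -5.43 ± 0.31), and Dock8, an activator of the GTPase Cdc42, from 17.5 and 18.7 CPM to 0.521 and 0.763 CPM (log2 -4.80 ± 0.29). Xirp1, which binds actin in muscle, went from 55.3 and 50.6 CPM to 2.81 and 2.48 CPM (log2 -4.32 ± 0.13). The neuronal beta-tubulin Tubb3 and neurofilament Nefm are given with their list below. Shmt1, the cytosolic serine hydroxymethyltransferase, fell from 33.3 and 32.2 CPM to 2.48 CPM in both DM2 libraries (log2 -3.72 ± 0.23). Falls of log2 -4.21 to -3.69 were found for Lingo2, the zinc-sensing receptor Gpr39, the deubiquitinase Usp43, the synaptic vesicle protein Sv2b, the potassium channel Kcnk2 and Dynap. All 12 read lower in both DM2 libraries than in both of day 0, and the adjusted p of the 24 largest changes ran from 1.04e-10 for Ctla2a to 5.76e-06 for Slc1a3.

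**Figure D1:**
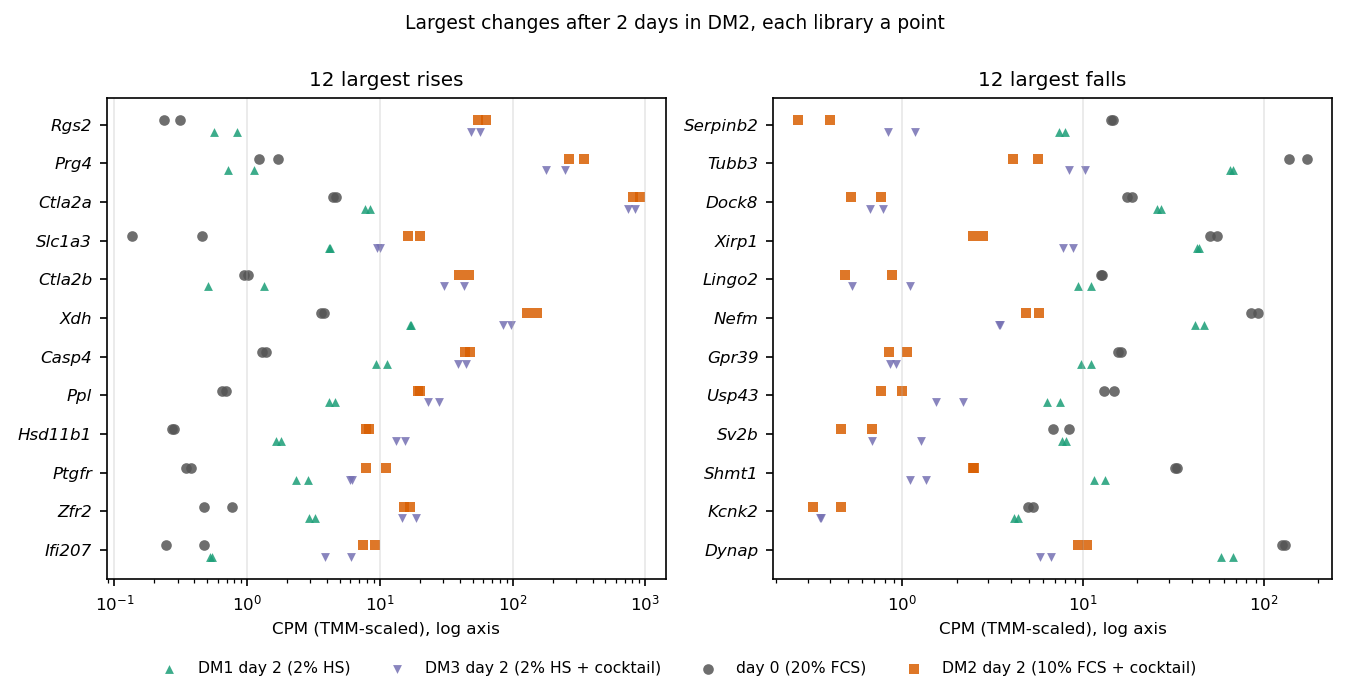
Level of the 12 largest rises (left) and 12 largest falls (right), in CPM on a log axis, with a point for each of the 2 libraries of a group. Day 0 (grey circles) and DM2 at day 2 (orange squares) lie apart for all 24 genes, and DM1 (green) and DM3 (purple) at day 2 are drawn beside them.

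Some genes had almost no counts in one of the groups. Ceacam10, a cell adhesion gene, had 0 counts at day 0 and 10.1 and 10.8 CPM in DM2, at least 101-fold higher against a floor of 3 counts per library. The acute-phase protein Orm1 had 1 count at day 0 and 22 and 16.9 CPM in DM2, a ratio of 1120 (exact 95% counting interval 201 to 44400). Serpina3m, a serine protease inhibitor with close copies that may share reads, had 1 count and a ratio of 483 (86.2 to 19100), and the small heat shock protein Hspb7 had 2 counts and a ratio of 160.0 (43.9 to 1330). In the other direction keratin Krt14 went from 5.79 and 4.26 CPM to 0 counts (at least 42.8-fold lower), and the thrombin-receptor relative F2rl2 from 1.88 and 2.01 CPM to 0 counts (at least 16.6-fold lower). Fibcd1 kept 1 count (63.5-fold lower, 11 to 2540). Intervals and floors cover counting error only.

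Glucocorticoid target genes were higher in DM2. Of 21 list members tested 16 rose and 0 fell, with a median log2 of 2.32 against 0.01 over all genes tested. Hsd11b1 and Tsc22d3 are given above. The metallothionein Mt2, which binds zinc, read 24.7 and 23.3 CPM at day 0 and 523 and 443 CPM in DM2 (log2 4.33 ± 0.12), and its neighbour Mt1 29.1 and 25.8 CPM and then 395 and 304 CPM (3.67 ± 0.14). Both DM2 libraries lay far above both day 0 libraries in these genes. The zinc finger gene Zbtb16 had 1 count at day 0 and a ratio of 22.7 (3.63 to 940.0), and the sulfotransferase Sult1a1, with 0 counts at day 0, was at least 3.2-fold higher. The other 10 members that rose did so by log2 0.57 (Nr3c1, the receptor gene itself) to 4.03 (Hif3a, 3 counts at day 0). The kinase Sgk1 (log2 0.18) and the MAP kinase phosphatase Dusp1 (-0.12), both well known targets, did not pass the test, and neither did 3 other members.

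The promoter of Mt1 shows what the core of a glucocorticoid response element looks like beside such a gene. The 250 bases before its RefSeq start site (GRCm38.p6, chr8:94178839-94179088, plus strand) hold the core ACANNNTGT, in capitals, 92 bases before the start:
Mt1: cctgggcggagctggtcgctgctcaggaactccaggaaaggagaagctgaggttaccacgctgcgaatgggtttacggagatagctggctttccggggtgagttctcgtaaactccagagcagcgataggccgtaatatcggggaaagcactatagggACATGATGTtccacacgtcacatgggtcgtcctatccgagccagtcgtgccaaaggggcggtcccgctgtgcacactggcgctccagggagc
Both strands were searched. This core occurred in 7 of the 30 windows of the list (23.3%), in 5 genes, against 5.84% of all 32851 windows. The full palindromic glucocorticoid response element, which contains the core, occurred in 1 window of the list, that of Sgk1, and in 3 windows of the table (0.00913%). A match is a run of letters, not a binding site, and a window without one says nothing of the receptor.

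Inflammatory genes that glucocorticoids are known to hold down moved both ways. Of 19 tested 8 rose and 9 fell. The stromelysin gene Mmp3 read 0.0698 and 0.0681 CPM at day 0 and 3.97 and 4.39 CPM in DM2 (log2 5.83 ± 0.26). Its day 0 level was 2 counts in each library, under the floor of 3, so the size of this rise is uncertain. Interleukin 6 (Il6) read 0.314 and 0.375 CPM and then 2.81 and 2.86 CPM (3.02 ± 0.35), and the chemokine Cxcl5 1.57 and 1.64 CPM and then 9.02 and 8.09 CPM (2.41 ± 0.25). These 3 were higher in both DM2 libraries. The collagenase Mmp13 rose by log2 3.59 ± 0.84, and its adjusted p of 0.00744 was 0.0528 without day 0 replicate 1. The interleukin 33 receptor Il1rl1 fell by 2.75 on the log2 scale, from 1.85 and 1.36 CPM to 0.24 and 0.229 CPM. The chemokine Ccl2 (-0.53) and the growth factor Csf1 (0.02) did not pass.

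Phosphodiesterase genes, whose products IBMX inhibits, mostly rose. Of 13 tested 8 rose and 2 fell (0 or 1 fell when any 1 of the 4 libraries was left out), with a median log2 of 0.49. Pde4b, a cyclic AMP phosphodiesterase, read 53.0 and 52.5 CPM at day 0 and 178 and 217 CPM in DM2 (log2 1.91 ± 0.10), and Pde4d 21.9 and 22.5 CPM and then 39.3 and 48.3 CPM (0.98 ± 0.12). Pde1a rose by log2 3.88 ± 0.34 (4.66 without day 0 replicate 1). Pde3a rose by 1.66 ± 0.44, with an adjusted p of 0.00808 that was 0.0752 without day 0 replicate 1. Pde4a fell by 0.48, a call lost when any 1 of the 4 libraries was left out (adjusted p 0.0724 to 0.158). Pde1b and Pde2a did not pass.

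The genes that CREB is known to induce split into groups of like size. Of 17 tested 6 rose and 6 fell (median log2 -0.08). Beside Rgs2, the salt-inducible kinase Sik1 rose from 65.3 and 57.9 CPM to 223 and 248 CPM (log2 1.94 ± 0.10). The EGF receptor ligand amphiregulin, Areg, fell from 30.1 and 26.1 CPM to 6.61 and 5.38 CPM (-2.23 ± 0.16). The nuclear receptor Nr4a1 fell from 13.1 and 11.8 CPM to 5.05 and 3.97 CPM (-1.47 ± 0.14), and Fosb, a partner of Jun, from 2.79 and 3.31 CPM to 0.922 and 0.687 CPM (-1.92 ± 0.32). The day 0 and DM2 libraries did not overlap for any of these 4. Nr4a3 (0.01) and Crem (-0.08) did not pass.

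Members that rose and members that fell carry the cyclic AMP response element or its core before their start. The windows below are 250 bases before the RefSeq start site (GRCm38.p6), with the element TGACGTCA or its core TGACG, on either strand, in capitals. They are shown because Rgs2 and Dio2 rose while Areg fell:
Rgs2: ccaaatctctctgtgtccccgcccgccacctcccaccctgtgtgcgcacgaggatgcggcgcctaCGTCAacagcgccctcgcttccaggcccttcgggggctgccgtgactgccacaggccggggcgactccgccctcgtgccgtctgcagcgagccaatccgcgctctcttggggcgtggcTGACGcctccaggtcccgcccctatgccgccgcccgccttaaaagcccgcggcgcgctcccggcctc
Dio2: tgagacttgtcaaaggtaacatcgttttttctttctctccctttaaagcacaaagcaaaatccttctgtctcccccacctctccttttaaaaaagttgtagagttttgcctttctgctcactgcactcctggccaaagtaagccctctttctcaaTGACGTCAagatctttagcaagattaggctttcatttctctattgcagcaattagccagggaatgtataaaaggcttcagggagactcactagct
Areg: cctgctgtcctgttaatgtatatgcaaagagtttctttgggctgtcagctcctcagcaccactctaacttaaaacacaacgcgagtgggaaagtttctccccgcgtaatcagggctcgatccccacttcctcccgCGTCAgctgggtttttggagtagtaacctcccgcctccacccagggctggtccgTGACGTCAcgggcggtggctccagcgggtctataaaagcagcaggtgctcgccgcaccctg
They lie at chr1:144004150-144004399 (Rgs2, minus strand), chr12:90739039-90739288 (Dio2, minus strand) and chr5:91139349-91139598 (Areg, plus strand). Dio2, the deiodinase that activates thyroid hormone, rose by log2 0.67 ± 0.15 from 10.5 and 11.0 CPM to 15.1 and 19.1 CPM. The full element occurred in 3 of the 21 windows of the list (14.3%), those of Areg, Dio2 and Sst, against 1.55% of all windows. Its core, which every full element contains on both strands, occurred in 13 (61.9%) against 17.8%. Prg4 was not among the promoters of the table, and the 3 windows of Tsc22d3 held 1 core between them and no glucocorticoid core.

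Upstream of CREB, the cyclase and kinase genes were called about as often as all genes tested (50% against 49.7%). Of 20 genes for adenylyl cyclases, protein kinase A and its anchors 7 rose and 3 fell (4 rose without DM2 replicate 1). The cyclase Adcy8 rose by log2 1.72 ± 0.37, and the cyclase Adcy7 fell from 394 and 399 CPM to 150.1 and 189 CPM (-1.23 ± 0.13). Pkia, an inhibitor peptide of protein kinase A, fell by 1.39 ± 0.11. Of 22 RGS genes and receptors linked to the agents 7 rose and 10 fell. The estrogen-binding receptor Gper1 fell from 13.2 and 9.23 CPM to 1.56 and 1.34 CPM (-2.95 ± 0.27), and the adenosine receptor Adora2a fell by 2.28 (3.22 without DM2 replicate 1).

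PPAR target genes and genes of fatty acid oxidation rose more often than they fell. Of 26 tested 13 rose and 2 fell (median log2 0.34). Plin4, which coats lipid droplets, read 4.05 and 2.96 CPM at day 0 and 39.0 and 45.2 CPM in DM2 (log2 3.58 ± 0.25). Lipoprotein lipase, Lpl, read 46.9 and 51.0 CPM and then 227 CPM in both (2.21 ± 0.12). The fatty acid transporter Cd36 had 3 counts at day 0 and 1.16 and 1.03 CPM in DM2, a ratio of 21.2 (6.88 to 106). The muscle carnitine transferase Cpt1b fell from 3.21 and 3.44 CPM to 1.16 and 1.45 CPM (-1.34 ± 0.28). Acot1, a thioesterase, rose by 1.87 ± 0.48 (adjusted p 0.00606, and 0.06 without day 0 replicate 1). Cpt2 (-0.10) and Acadl (0.23) did not pass.

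Of the factors that set off fat cell formation, the C/EBP genes rose and Pparg did not. Of 17 tested 6 rose and 4 fell (median log2 0.19). Cebpa read 3.04 and 1.87 CPM at day 0 and 24.3 and 20.6 CPM in DM2 (log2 3.19 ± 0.23), Cebpd 1.60 and 1.5 CPM and then 10.3 and 7.02 CPM (2.48 ± 0.20), and Cebpb 36.4 and 28.6 CPM and then 188 and 142 CPM (2.34 ± 0.16). All DM2 values of these 3 lay above all day 0 values. Pparg had a log2 of 0.02 and did not pass. Gata2, which opposes fat cell formation, fell by 0.52 ± 0.10.

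Mature fat cell genes stayed near the floor in many cases. Of 18 listed only 9 were expressed enough to test, of which 7 rose and 1 fell (4 rose without day 0 replicate 2, and 4 without DM2 replicate 1). The fatty acid binding protein Fabp4 read 0.488 and 0.341 CPM at day 0 and 4.69 and 3.93 CPM in DM2 (log2 3.36 ± 0.36), and the insulin-regulated glucose transporter Slc2a4 0.488 and 0.477 CPM and then 1.60 and 1.79 CPM (1.80 ± 0.41). Dgat1, which completes triglycerides, rose from 32.5 and 33.8 CPM to 55.9 and 54.7 CPM, and Agpat2, an earlier enzyme of that route, fell by 0.56 ± 0.11. Plin1 did not pass, and Adipoq, Cfd, Retn, Lep and Cidec, which define fat cells, were under the limit for testing.

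Lipid synthesis genes split. Of 16 genes of fatty acid synthesis 9 rose and 6 fell. The desaturase Scd1 rose from 483 and 512 CPM to 1094 and 1294 CPM (log2 1.26 ± 0.09), the lipid phosphatase Lpin1 from 7.64 and 7.77 CPM to 28.7 and 29.6 CPM (1.92 ± 0.16) and the acetyl-CoA synthetase Acss2 by 1.32 ± 0.15, while the desaturase Fads2 fell from 106 CPM in both to 65.0 and 64.7 CPM (-0.71 ± 0.07). Acacb rose by 1.33 ± 0.37 (adjusted p 0.00945, and 0.0947 without day 0 replicate 1). Of 23 genes of cholesterol synthesis and uptake 9 rose and 3 fell. Mvd, the decarboxylase of the mevalonate route, rose from 15.7 and 15.6 CPM to 34.1 and 26.4 CPM (0.95 ± 0.14), and the sterol isomerase Ebp fell from 37.2 and 33.6 CPM to 24.6 and 20.3 CPM (-0.66 ± 0.13). Mvk and Idi1 did not pass.

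More insulin pathway genes rose than fell. Of 21 tested 11 rose and 3 fell (median log2 0.40). Pik3r1, the regulatory subunit of PI3 kinase, rose from 36.9 and 39.4 CPM to 93.6 and 121 CPM (log2 1.5 ± 0.13), and the growth factor Igf2 from 0.977 and 0.954 CPM to 5.49 and 5.19 CPM (2.46 ± 0.13). Irs1 fell from 92.8 and 91.0 CPM to 28.6 and 36.6 CPM (-1.49 ± 0.12). The binding protein Igfbp5 rose by 1.25 ± 0.18 and Igfbp2 fell by 0.92 ± 0.19. Igf1r and Igf1 did not pass.

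Of 20 genes of glucose uptake and glycolysis 5 rose and 9 fell (median log2 -0.29). Txnip, which restrains glucose uptake, rose from 60.2 and 71.4 CPM to 517 and 578 CPM (log2 3.06 ± 0.15). Lactate dehydrogenase Ldha fell from 1416 and 1236 CPM to 502 and 452 CPM (-1.48 ± 0.11), and the muscle enolase Eno3 from 354 and 314 CPM to 139 and 117 CPM (-1.39 ± 0.14). Pfkfb3, which makes the activator of phosphofructokinase, rose by 1.02 ± 0.14. Of 18 genes of atrophy, FoxO and autophagy 11 rose and 1 fell (median log2 0.59). The muscle ubiquitin ligase Fbxo32 (atrogin) rose from 27.6 and 33.8 CPM to 131 and 157 CPM (2.23 ± 0.12), Sesn1, which restrains mTORC1, from 24.6 and 21.4 CPM to 93.0 CPM in both (2.01 ± 0.10), and the autophagosome gene Map1lc3a by 1.71 ± 0.12. Trim63 (MuRF), with 0 counts at day 0, was at least 5.86-fold higher. Tfeb fell by 0.56 ± 0.15, a call lost without day 0 replicate 1 (adjusted p 0.094) and without DM2 replicate 2 (0.0853).

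Genes of the myogenic program rose in part, at low levels for the contractile apparatus. Of 23 myogenic regulators and fusion genes 10 rose and 6 fell (median log2 0.15). Myogenin, Myog, read 1.75 and 1.87 CPM at day 0 and 29.2 and 24.7 CPM in DM2 (log2 3.89 ± 0.16), and Myf6, a late myogenic factor, 0.454 and 0.511 CPM and then 6.41 and 5.27 CPM (3.58 ± 0.32). The fusion peptide gene Gm7325 (myomixer) rose from 0.105 and 0.17 CPM to 2.16 and 1.56 CPM (3.71 ± 0.31), and the RNA-binding protein Rbm24 by 4.87 ± 0.23 (5.79 without day 0 replicate 1). Myod1 (-0.34) and Mef2c (-0.03) did not pass. Nphs1 fell by 2.23, a call lost when any 1 of the 4 libraries was left out (adjusted p 0.0717 to 0.168).

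Of 36 sarcomere genes 17 rose and 2 fell (median log2 0.79). Embryonic myosin Myh3 read 0.628 and 0.511 CPM at day 0 and 5.25 and 4.16 CPM in DM2 (log2 3.04 ± 0.24), and skeletal actin Acta1 3.49 and 3.54 CPM and then 15.3 and 11.6 CPM (1.94 ± 0.18). Muscle creatine kinase Ckm had 1 count at day 0 and 0.721 and 0.611 CPM in DM2, a ratio of 38.6 (6.47 to 1570), and the M-band gene Myom3 rose by 3.43 ± 0.43 (4.21 without day 0 replicate 1). Cardiac troponin Tnnt2, which myoblasts express, fell from 117 CPM in both to 11.7 and 10.3 CPM (-3.40 ± 0.16), with Xirp1 the other member that fell. The myosins Myh7 (-0.52) and Myh8, the latter with few or no counts in either group, did not pass.

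At the neuromuscular junction the subunits of the acetylcholine receptor went separate ways. Of 22 genes of this and of excitation-contraction coupling 11 rose and 6 fell. The fetal subunit Chrng rose from 1.29 and 1.5 CPM to 11.2 and 9.73 CPM (log2 2.90 ± 0.27), while Chrna1 fell from 572 and 534 CPM to 148 and 155 CPM (-1.87 ± 0.11) and Chrnb1 from 63.0 and 58.0 CPM to 20.6 and 20.8 CPM (-1.55 ± 0.11). The adaptor Dok7, which clusters the receptor, fell from 11.7 and 10.1 CPM to 3.08 and 3.47 CPM (-1.73 ± 0.17). The calcium pump Atp2a1 rose from 3.66 and 3.27 CPM to 13.8 and 16 CPM (2.10 ± 0.15).

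Set beside the other media at the same day, the sarcomere genes that differed were all lower in DM2, while the myogenic regulators were divided. Myog averaged 26.9 CPM in DM2, 43.5 CPM in DM1 and 218 CPM in DM3, and Myh3 4.70, 60.3 and 142 CPM. Against DM3 the difference was log2 -3.02 for Myog and -4.91 ± 0.21 for Myh3, and Acta1 was -4.24. Of the 36 sarcomere genes 0 were higher and 25 lower than in DM3 (background 6.31 and 9.98%), and 0 higher and 24 lower than in DM1 (17.5 and 21.9%). Of the 23 myogenic regulators and fusion genes 2 were higher and 13 lower than in DM3, and 6 higher and 9 lower than in DM1. Myf6 read 0.504 and 0.75 CPM in DM1, under its level in DM2 (log2 3.20 ± 0.31), and 4.27 and 3.26 CPM in DM3, where the difference of 0.63 did not pass. The inhibitors of differentiation Id2 and Id3, which bind the partners of MyoD, were higher in DM2 than in DM3. Id2 read 102 and 91.3 CPM in DM2 and 8.63 and 6.34 CPM in DM3 (log2 3.69), and Id3 168 and 131 CPM and 21.4 and 23.2 CPM (2.75). Over day 0 they rose by only 0.80 ± 0.21 and 0.69 ± 0.22, calls that were lost when a library was left out (Id2 at an adjusted p of 0.081 without day 0 replicate 1, Id3 at 0.214 without DM2 replicate 1). By day 7 of DM2, Id2 was at 14.9 and 14.8 CPM, Id3 at 17.8 and 19 CPM, and Myh3 at 86.6 and 74.6 CPM.

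**Figure D2:**
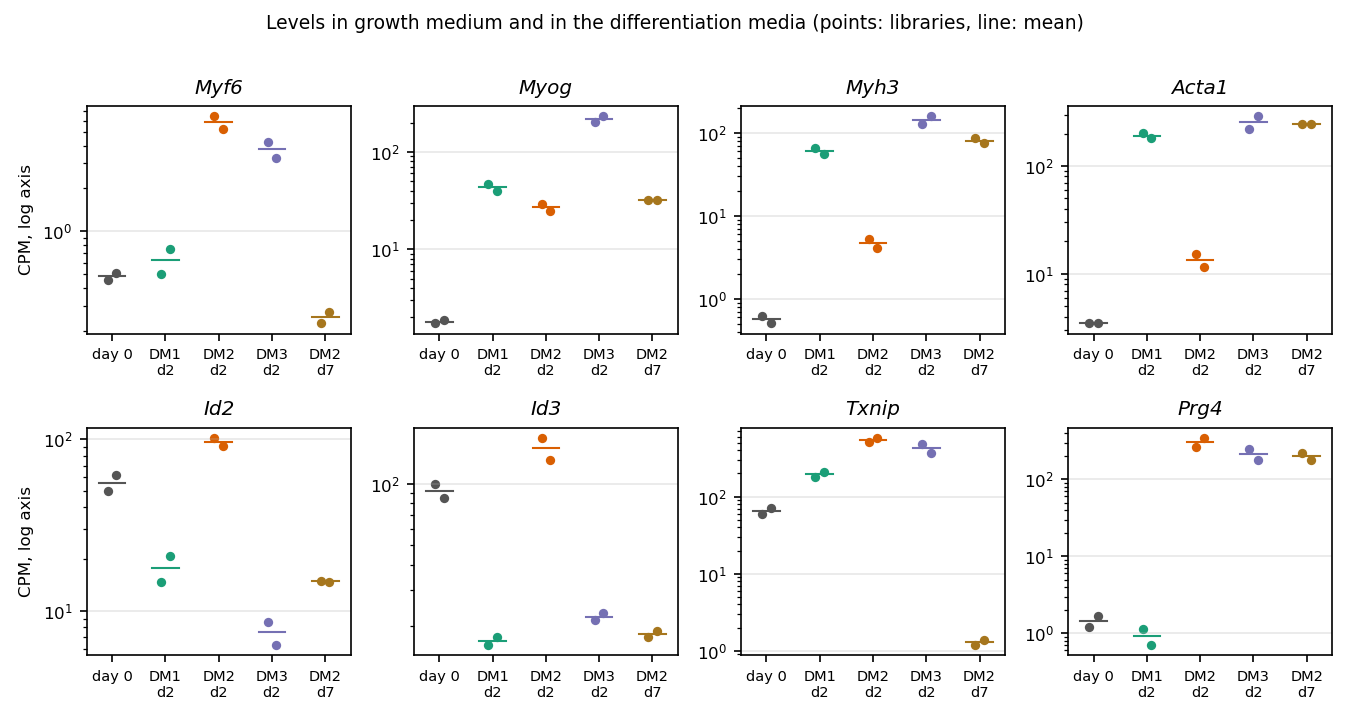
Level of 8 genes in CPM, on a log axis that differs between panels, in day 0 and in DM1, DM2 and DM3 at day 2 and DM2 at day 7, with a point for each library and a line at the mean of 2. Myh3 and Acta1 of DM2 at day 2 lie between day 0 and the other media, Id2 and Id3 are highest there, and Txnip falls from 517 and 578 CPM at day 2 to 1.20 and 1.4 CPM at day 7.

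Genes of the actin cytoskeleton, many of them targets of serum response factor (SRF), were lower in DM2. Of 27 contractile smooth muscle and SRF targets 2 rose and 15 fell (median log2 -0.34). Transgelin, Tagln, read 36.1 and 30.2 CPM at day 0 and 6.41 and 4.16 CPM in DM2 (log2 -2.65 ± 0.20), and enteric actin Actg2 27.7 and 23.1 CPM and then 8.49 and 7.44 CPM (-1.67 ± 0.14). Filamin Flna, which crosslinks actin, fell from 3322 and 3135 CPM to 1052 and 1333 CPM (-1.44 ± 0.13). Cytoplasmic actin Actg1 fell from 5539 and 4599 CPM to 2788 and 2377 CPM (-0.97 ± 0.12). The DM2 libraries were the lower pair for all 4. The 2 rises, Lmod1 and Smtn, were not stable: Lmod1 had an adjusted p of 0.131 and Smtn of 0.135 without DM2 replicate 1. Myh9 and Myh11 did not pass.

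The CArG box, the sequence SRF binds, lies before the start of some of these genes. The windows of Actg1 (chr11:120348496-120348745, minus strand) and of Srf itself (chr17:46556163-46556412, minus strand; GRCm38.p6, RefSeq starts) are printed with each box in capitals, since both genes fell:
Actg1: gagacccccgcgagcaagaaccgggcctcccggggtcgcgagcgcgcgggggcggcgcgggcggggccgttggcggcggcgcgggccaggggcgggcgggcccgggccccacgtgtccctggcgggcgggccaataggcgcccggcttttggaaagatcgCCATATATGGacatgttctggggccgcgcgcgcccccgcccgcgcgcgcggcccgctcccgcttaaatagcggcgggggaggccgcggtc
Srf: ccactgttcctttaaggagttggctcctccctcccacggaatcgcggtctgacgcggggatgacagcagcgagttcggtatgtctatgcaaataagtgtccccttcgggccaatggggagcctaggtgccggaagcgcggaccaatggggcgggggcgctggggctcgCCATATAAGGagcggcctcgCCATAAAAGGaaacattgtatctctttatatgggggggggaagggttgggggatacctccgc
Srf fell from 94.9 and 80.6 CPM to 53.5 and 48.9 CPM (log2 -0.78 ± 0.11). A box on either strand occurred in 8 of the 24 windows of the list (33.3%), in 7 genes, against 1.47% of all windows. The list was chosen as known targets and members that fell were not set apart, so this share says nothing of the falls in DM2. The same limit applies to the shares given for the glucocorticoid, cyclic AMP and TEAD motifs.

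Targets of YAP and TEAD, which respond to cell density and tension, were also lower. Of 25 tested 3 rose and 12 fell (median log2 -0.33). The muscle ankyrin gene Ankrd1 read 741 and 666 CPM at day 0 and 189 and 162 CPM in DM2 (log2 -2.00 ± 0.12), and the matricellular gene Cyr61 277 and 266 CPM and then 98.5 and 93.2 CPM (-1.5 ± 0.13). Endothelin 1, Edn1, fell by 3.00 (4.21 without DM2 replicate 1, 2.35 without replicate 2). Tissue factor F3 rose from 8.34 and 6.88 CPM to 19.2 and 18.3 CPM (1.30 ± 0.14), and Tead1 itself rose by 0.77 ± 0.15. Amotl1 and Amotl2 did not pass. The TEAD motif GGAATG, searched on both strands, occurred in 10 of the list's 20 windows (50.0%) against 12.6% of all, and the window of Ankrd1 (chr19:36119845-36120094, minus strand), which fell most after Edn1 among members with a match, holds it in 2 places, in capitals:
Ankrd1: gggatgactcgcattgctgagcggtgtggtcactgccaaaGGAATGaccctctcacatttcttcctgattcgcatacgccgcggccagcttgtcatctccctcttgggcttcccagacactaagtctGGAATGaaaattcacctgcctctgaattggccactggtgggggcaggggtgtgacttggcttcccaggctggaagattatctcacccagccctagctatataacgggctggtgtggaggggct

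Tubulins and neuron-type cytoskeleton genes fell together. Of 19 tested 15 fell and 3 rose (median log2 -1.25). Tubb3 read 172 and 137 CPM at day 0 and 5.61 and 4.08 CPM in DM2 (log2 -5.00 ± 0.30), the neurofilament genes Nefm 92.5 and 85 CPM and then 5.73 and 4.85 CPM (-4.07 ± 0.25) and Nefl 224 and 197 CPM and then 22.9 and 24.9 CPM (-3.14 ± 0.17). Each of the 3 was far lower in both DM2 libraries. Tubb4a, another neuronal beta-tubulin, rose from 1.36 and 1.64 CPM to 9.06 and 7.02 CPM (2.42 ± 0.24), and Tubb2b rose by 1.11 ± 0.09. Tubb2a did not pass. Tubulin genes are close copies of each other, and reads may have been divided between them.

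Immediate early genes were lower after 2 days in DM2. Of 17 AP-1 and early growth response genes 1 rose and 13 fell (median log2 -1.06). Egr1 read 142 and 134 CPM at day 0 and 33.5 and 39.4 CPM in DM2 (log2 -1.92 ± 0.21), and Egr2 4.43 and 4.22 CPM and then 0.361 and 0.573 CPM (-3.20 ± 0.29). Egr3 fell by 4.63 ± 0.42 (4.02 without DM2 replicate 1, 5.97 without replicate 2). Fosl2 was the member that rose, from 164 and 159.5 CPM to 279 and 325 CPM (0.90 ± 0.09). Junb (-0.15) and Jund (0.10) did not pass.

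The ligands and feedback regulators of receptor tyrosine kinases fell as well. Of 29 tested 5 rose and 19 fell (median log2 -0.89). The growth factor Fgf5 read 18.1 and 17.8 CPM at day 0 and 2.04 and 2.25 CPM in DM2 (log2 -3.06 ± 0.13), and the EGF receptor ligand Hbegf 51.3 and 54.6 CPM and then 9.74 and 7.86 CPM (-2.59 ± 0.14). Etv4, a transcription factor induced by MAP kinase, fell from 78.6 and 72.2 CPM to 10.8 and 8.55 CPM (-2.96 ± 0.12), and the feedback inhibitor Spry4 from 13.8 and 12.7 CPM to 2.73 and 2.25 CPM (-2.41 ± 0.13). Every DM2 value of these 4 was under every day 0 value. Hepatocyte growth factor, Hgf, which activates muscle stem cells, went the other way, from 19.8 and 20.4 CPM to 87.5 and 118 CPM (2.35 ± 0.17). Spry1 and Etv1 did not pass.

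**Figure D3:**
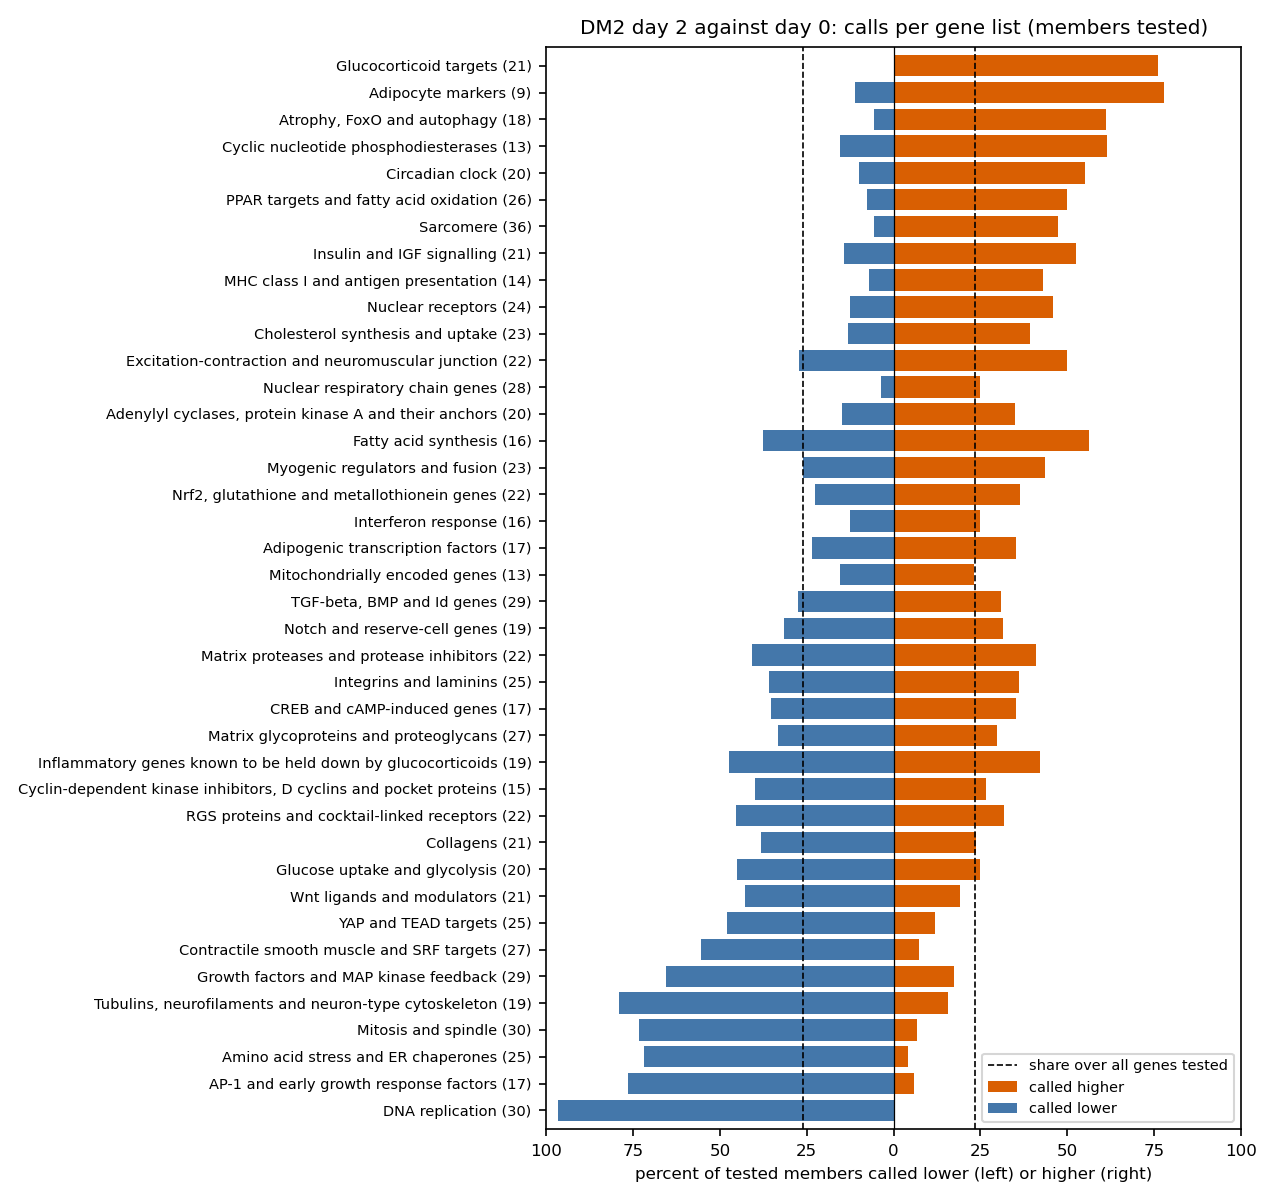
Percent of the tested members of each of the 40 gene lists called lower (blue, left) and higher (orange, right) in DM2 at day 2 than at day 0, with the number tested in brackets. Dashed lines mark the shares over all genes tested, 26.2% lower and 23.5% higher. DNA replication, AP-1 genes, amino acid stress and mitosis lie at the bottom, glucocorticoid targets at the top.

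The DNA replication genes were the list with the largest share of falls. Of 30 tested 29 fell and 0 rose, with a median log2 of -1.82. The origin licensing factor Cdc6 read 47.1 and 44.4 CPM at day 0 and 6.17 and 4.50 CPM in DM2 (log2 -3.10 ± 0.16). The helicase subunit Mcm3 fell from 176 and 167 CPM to 25.6 and 24.8 CPM (-2.77 ± 0.16), cyclin E2 (Ccne2) from 32.7 and 30.7 CPM to 4.73 and 4.81 CPM (-2.73 ± 0.13), and the S-phase activator E2f2 from 28.4 and 23.6 CPM to 3.45 and 3.02 CPM (-3.01 ± 0.17). Day 0 and DM2 were well apart in all 4. Rrm2, a ribonucleotide reductase subunit, was the exception at log2 0.06, which did not pass.

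The mitosis genes fell by less. Of 30 tested 22 fell and 2 rose, with a median log2 of -0.52. Mybl2 read 52.0 and 46.9 CPM at day 0 and 9.54 and 8.05 CPM in DM2 (log2 -2.49 ± 0.13), Mki67 585 and 605 CPM and then 199 and 288 CPM (-1.29 ± 0.18), and the kinase Plk1 137 and 120.5 CPM and then 65.6 and 61.6 CPM (-1.01 ± 0.10). Ndc80, of the kinetochore, fell by 0.98 ± 0.11. Ccnb1 (-0.16) and Cdc20 (-0.27) did not pass, and the 2 rises, Cdc25c and Ccnb2, became 1 without day 0 replicate 1 or DM2 replicate 2 and 0 without DM2 replicate 1. Ccnb2, at log2 0.41 ± 0.09, had an adjusted p of 0.0622 without DM2 replicate 1. Against DM1 at day 2, 28 of the 30 replication genes were lower and 1 higher, while of the mitosis genes 10 were lower and 5 higher. Against DM3, 21 replication genes were higher and 1 lower.

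Of the cyclin-dependent kinase inhibitors, D cyclins and pocket proteins tested, 15 in all, 4 rose and 6 fell. Cyclin D1, Ccnd1, which links mitogens to the cell cycle, fell from 385 and 399 CPM to 67.6 and 69.4 CPM (log2 -2.52 ± 0.10). The inhibitor p27, Cdkn1b, rose from 55.9 and 61.9 CPM to 122 and 125 CPM (1.07 ± 0.14), and the growth arrest gene Gadd45a from 31.2 and 33.1 CPM to 297 and 234 CPM (3.05 ± 0.11). The pocket protein Rbl1 fell by 1.70 ± 0.15 while Rb1 rose by 0.64 ± 0.11. Cdkn1a (p21), at log2 -0.02, and Cdkn1c did not pass.

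**Figure D4:**
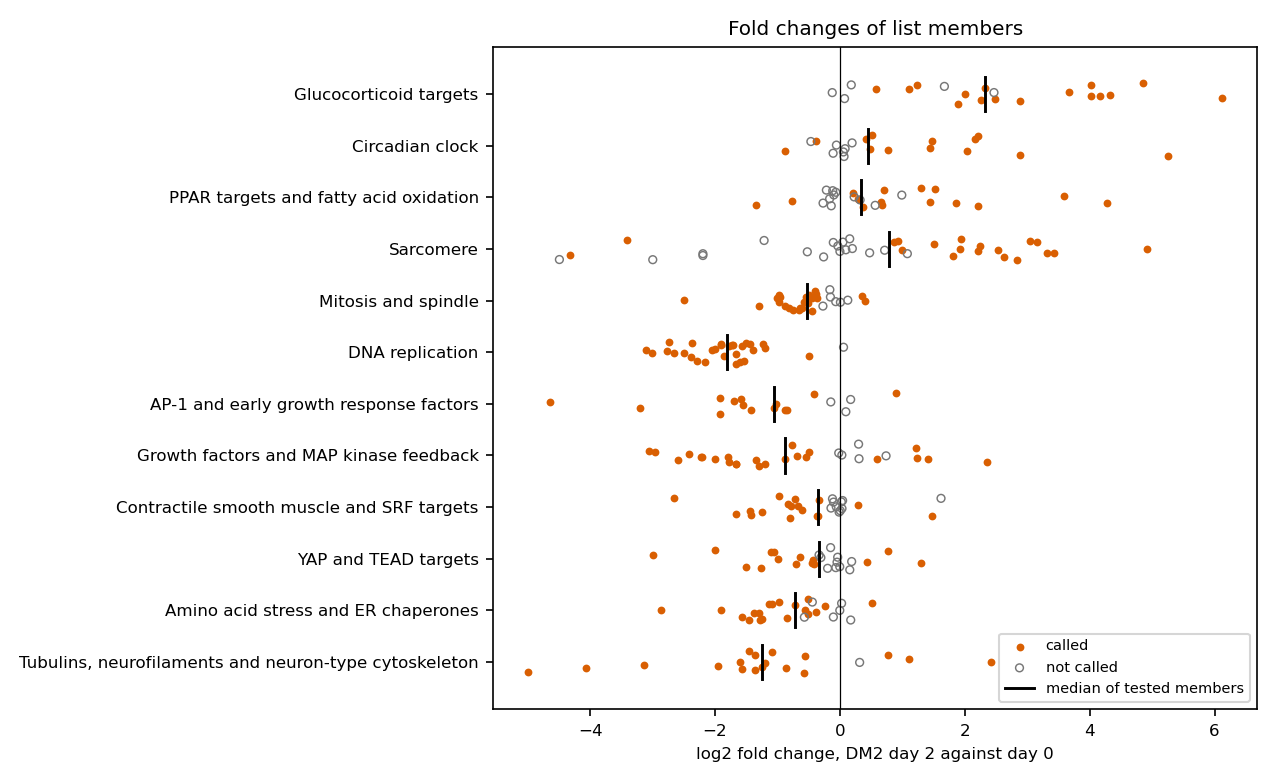
Log2 fold change of DM2 at day 2 over day 0 for each tested member of 12 gene lists, with called genes filled, the others open, and a bar at the median of the tested members. The replication genes spread around a median of -1.82 with Rrm2 alone above 0, and the glucocorticoid targets around 2.32.

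Matrix genes moved both ways, with 61.9% of collagen genes and 63% of matrix glycoproteins and proteoglycans called against 49.7% of all genes tested. Of 21 collagen genes 5 rose, near the 23.5% of all genes, and 8 fell. Col6a1 rose from 52.1 and 46.8 CPM to 203 and 228 CPM (log2 2.12 ± 0.10) and Col6a2, of the same trimer, from 13.3 and 11.1 CPM to 43.1 and 47.1 CPM (1.88 ± 0.13). Col8a1 fell from 77.8 and 81.4 CPM to 12.1 and 11.1 CPM (-2.78 ± 0.13). The cartilage collagen Col11a1 rose by 3.89 ± 0.47 (4.52 without day 0 replicate 2). Of 27 matrix glycoproteins and proteoglycans 8 rose (5 without day 0 replicate 1, and 5 without DM2 replicate 1) and 9 fell. Tenascin C, Tnc, fell from 1124 and 1076 CPM to 130.1 and 171 CPM (-2.87 ± 0.16), periostin, Postn, from 12.1 CPM in both to 3.25 and 3.09 CPM (-1.93 ± 0.32), and the proteoglycan versican, Vcan, rose from 293 and 310.3 CPM to 663 and 999 CPM (1.46 ± 0.17).

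Of 22 matrix proteases and their inhibitors 9 rose and 9 fell. Serpina3n, a protease inhibitor of the acute phase with close copies, rose from 0 and 0.17 CPM to 15.6 and 13.2 CPM (log2 7.30 ± 0.43, 6.35 without day 0 replicate 1 and 11.52 without replicate 2). Timp3 fell from 284 and 299 CPM to 104 and 122 CPM (-1.37 ± 0.10). Of 25 integrins and laminins 9 rose (5 without day 0 replicate 2) and 9 fell. The laminin chain Lama4 rose from 1.15 and 1.16 CPM to 4.33 and 5.12 CPM (2.03 ± 0.15). Itgb4 fell by 2.37 (3.32 without DM2 replicate 2) and Itga11 rose by 2.21 (3.50 without day 0 replicate 1, and 1.53 at an adjusted p of 0.0596 without replicate 2).

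Ligand and receptor genes of the TGF-beta, Wnt and Notch families moved both ways, with 58.6, 61.9 and 63.2% called against 49.7% of all genes. Of 29 genes of TGF-beta, BMP and Id 9 rose (5 without DM2 replicate 1) and 8 fell. The co-receptor Tgfbr3 rose from 4.01 and 4.84 CPM to 50.5 and 58.4 CPM (log2 3.62 ± 0.14), and the BMP antagonist Grem1 fell from 107 and 114 CPM to 23.4 and 23.8 CPM (-2.23 ± 0.19). Of 21 Wnt genes 4 rose and 9 fell. The receptor Fzd4 rose from 6.73 and 7.26 CPM to 46.8 and 59.0 CPM (2.92 ± 0.11), while the R-spondin receptor Lgr6 fell from 74.7 and 87.1 CPM to 6.33 and 8.59 CPM (-3.44 ± 0.24), Dkk2 from 21.3 and 19.6 CPM to 2.28 and 2.29 CPM (-3.16 ± 0.18) and Wnt7b from 4.99 and 5.11 CPM to 0.721 and 0.611 CPM (-2.92 ± 0.20). Of 19 Notch and reserve-cell genes 6 rose and 6 fell. The ligand Dll1 rose from 0.768 and 0.852 CPM to 5.25 and 5.42 CPM (2.71 ± 0.14) and Notch3 from 194 and 189.8 CPM to 538 and 652 CPM (1.63 ± 0.15), while the target Hes1 fell from 33.7 and 34.5 CPM to 14.5 and 11.6 CPM (-1.39 ± 0.16) and the modifier Lfng by 1.69 ± 0.12.

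Clock genes were mostly higher in DM2. Of 20 tested 11 rose and 2 fell (1 fell without either day 0 library or DM2 replicate 1), with a median log2 of 0.44. Per1, a repressor of the clock that glucocorticoids and CREB induce, read 28.5 and 25.1 CPM at day 0 and 188 and 208 CPM in DM2 (log2 2.88 ± 0.11), and the output factor Dbp 15.4 and 14.6 CPM and then 75.5 and 63.6 CPM (2.22 ± 0.12). Its relative Hlf rose by 5.26 ± 0.31 (4.61 without day 0 replicate 1, 6.50 without replicate 2). Ciart fell from 3.07 and 2.90 CPM to 1.76 and 1.49 CPM. The activators Arntl (0.07) and Npas2 (-0.46) did not pass. The hour at which libraries were taken is not among the labels.

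Of 24 nuclear receptor genes 11 rose and 3 fell (median log2 0.25). The vitamin D receptor Vdr rose from 27.4 and 25.9 CPM to 309 and 362 CPM (log2 3.65 ± 0.14), Rora from 0.977 and 1.33 CPM to 4.21 and 5.27 CPM (2.03 ± 0.21) and the retinoic acid receptor Rarb by 1.64 ± 0.26. The mineralocorticoid receptor Nr3c2 fell from 7 counts in all to 0, at least 1.03-fold lower, and lost its call without day 0 replicate 1 or either DM2 library (adjusted p 0.13 to 0.183), but not without day 0 replicate 2 (0.048). Esrra and Ppard did not pass.

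Genes of amino acid stress fell in DM2. Of 25 genes of amino acid stress and ER chaperones 18 fell and 1 rose (median log2 -0.73). Chac1, which breaks down glutathione, read 50.0 and 43.3 CPM at day 0 and 7.37 and 5.42 CPM in DM2 (log2 -2.87 ± 0.16). The mitochondrial folate enzymes Shmt2 and Mthfd2 fell from 463 and 429 CPM to 130.3 and 109 CPM (-1.90 ± 0.16) and from 153 CPM in both to 52.8 and 50.3 CPM (-1.57 ± 0.08), and the leucine transporter Slc7a5 from 305 and 366 CPM to 121 and 123 CPM (-1.46 ± 0.16). All were lower in both DM2 libraries, and the cytosolic folate enzyme Shmt1 of the largest falls went the same way. Ddit3 (CHOP) rose by 0.52 ± 0.09. Slc7a11 and Hsp90b1 did not pass. Of 22 genes of Nrf2, glutathione and metallothionein 8 rose and 5 fell, with Gclc, which starts glutathione synthesis, up from 70.9 and 73.9 CPM to 248 and 279.5 CPM (1.87 ± 0.12), Gpx3 up by 1.86 ± 0.16 and the secreted superoxide dismutase Sod3 down from 4.47 and 3.71 CPM to 1.64 and 1.37 CPM (-1.44 ± 0.20).

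DM2 at day 2 was then compared with the other media at the same day and with its own later state. It differed from DM1 in 6290 genes (39.4%), with serum and agents changed together, and from DM3 in 2602 (16.3%), with only the kind and amount of serum changed. Of the 3754 genes that rose over day 0, 2134 (56.8%) were higher in DM2 than in DM1 and 184 (4.9%) lower, and 335 (8.92%) higher and 459 (12.2%) lower than in DM3. Of the 4181 that fell, 2501 (59.8%) were lower than in DM1 and 42 (1%) higher, and 397 (9.5%) higher and 589 (14.1%) lower than in DM3. The count against DM3 depended on single libraries: it was 4130 without DM3 replicate 1, 1188 without DM3 replicate 2, 1124 without DM2 replicate 1 and 494 with only the 4 libraries fitted, and 49.2% of calls were higher under library totals and 55% without DM3 replicate 1, against 38.7%. These comparisons share the DM2 libraries with that against day 0, so their values are given side by side only. DM3 replicate 2 stood apart from its partner. It had 17779 genes detected against 20122 in replicate 1, and 0.837% of counts on processed pseudogenes against 2.84%. The Spearman correlation between these 2 libraries was 0.962. List counts against DM3, here and above, were not checked for the part of this library.

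The 5 genes farthest above DM1 were Prg4, Ctla2a, Rgs2, Ctla2b and Mt2. Prg4 read 1.13 and 0.713 CPM in DM1 (log2 8.37 ± 0.40), Ctla2a 8.48 and 7.73 CPM (6.73), Rgs2 0.84 and 0.563 CPM (6.39) and Mt2 18.4 and 21.3 CPM (4.6). Ctla2b was higher by 5.52 (6.42 without DM1 replicate 2). The 5 farthest below it all read higher in DM1 than at day 0: the ligand Wnt7b read 28.4 and 27.3 CPM there (-5.38), Dock8 27 and 25.8 CPM (-5.35), the pentraxin Nptx1 19.9 and 18.4 CPM (-5.07), the sialic acid lectin Siglecg 16.5 and 15.5 CPM (-4.66) and Il1rl1 5.79 and 5.78 CPM (-4.59). Of 23 genes of cholesterol synthesis and uptake 0 were higher and 19 lower than in DM1.

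Against DM3, which holds the same agents, the 5 genes farthest above were Id2, Sprr1a, Prl2c2, Id3 and Ass1. Beside Id2 and Id3, the placental hormone gene Prl2c2 read 30.5 and 27.6 CPM in DM2 and 4.14 and 4.26 CPM in DM3 (log2 2.79), and Ass1, which makes argininosuccinate, 10.5 and 9.24 CPM and 1.89 and 1.36 CPM (2.61). Sprr1a was higher by 3.20, which failed at an adjusted p of 0.0674 without DM3 replicate 2, and its own fall from day 0 lost its call when any 1 of the 4 libraries was left out (0.0569 to 0.0958). Of the genes farthest below DM3, which also include Myh3 and Acta1, the calcium store Casq2 read 1.28 and 0.84 CPM in DM2 and 21 and 24.5 CPM in DM3 (-4.42), Ckm 12 and 12.4 CPM in DM3 (-4.19), and the adipokine relative C1qtnf3 1.36 and 1.34 CPM and 24.8 and 24 CPM (-4.17). For Prg4 (0.52 ± 0.27) and Rgs2 (0.16) the difference between DM2 and DM3 did not pass, whereas Tsc22d3 was higher in DM2 by 0.66, at 377 and 353 CPM in DM3.

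From day 2 to day 7 in DM2, 8754 genes (54.8%) differed: 4063 (25.4%) stood higher on day 7 and 4691 (29.4%) stood lower (with library totals 2665 and 6554, which moves the median of all genes to -0.27). Of those that had risen by day 2, 1895 (50.5%) were lower at day 7 and 689 (18.4%) higher, and of those that had fallen 1862 (44.5%) were higher and 891 (21.3%) lower. Against day 0 itself 55.4% of genes were called at day 7, 24.5% higher and 30.9% lower. Rgs2 (0.27) and Prg4 (-0.61) did not pass, at 76.9 and 64.6 CPM and 222 and 178 CPM on day 7, and Tsc22d3 fell by 1.20 to 232 and 271 CPM. All 25 genes of amino acid stress and ER chaperones were higher at day 7 than at day 2, as were 24 of 36 sarcomere genes, and 29 of 30 mitosis genes were lower with 0 higher. The teneurin gene Tenm4 went from 1.04 and 1.45 CPM to 174 and 169 CPM (log2 7.09), the carbonic anhydrase Car6 from 2.36 and 1.76 CPM to 172 and 182 CPM (6.42) and the actin-severing advillin Avil from 4.09 and 2.56 CPM to 269.9 and 279 CPM (6.37). Txnip went to 1.20 and 1.4 CPM (-8.71), Wnt10b from 5.45 and 7.02 CPM to 0.151 and 0.156 CPM (-5.30), the interleukin receptor chain Il2rb from 8.13 and 7.37 CPM to 0.226 and 0.35 CPM (-4.73) and Myf6 to 0.226 and 0.272 CPM (-4.53).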

How the data were processed

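RNA of C2C12 cells was sequenced as poly(A), strand-specific, single-end libraries, 2 per group. Per the submitters' processing notes reads were aligned with STAR 2.5.1b to GRCm38.p5 and counted with RSEM 1.2.31, and the authors deposited RSEM's expected counts per gene, not normalized, in which a read that fits several genes is divided among them. The table held 49671 genes, 20838 of them at 0 in all 14 libraries. Counts were rounded to whole numbers. Genes were kept by filterByExpr on the 7 groups (15973), scaled by TMM and fitted in R 4.3.3 with edgeR 4.0.16 (and limma 3.58.1), using the robust quasi-likelihood F test on all 14 libraries with 7 residual degrees of freedom, and p-values were adjusted by Benjamini-Hochberg over all genes tested. An SE was taken from the size of the log2 fold change over the root of its F. It is an approximation, and it can fall under counting error where a group has few counts. Floors of 3 counts lay between 0.102 and 0.132 CPM per library, and counting intervals are exact at 95%. Reads carry no molecular identifiers. Counts were simulated for DM2 day 2 against day 0, over 15973 genes. The test recovered 58% of 100 genes changed 2-fold and 80% of 100 changed 4-fold, with 6 false calls. In the simulation all groups shared each gene's overall mean, and only these genes were changed, in DM2 at day 2 alone. The data hold far more calls (49.7% of genes), so these rates may not carry over to them. Coordinates are from Gencode vM21 of GRCm38, promoters from RefSeq (GRCm38.p6).

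The members and the 40 gene lists (plus 7 marker lists, 948 symbols in all, 844 tested) were chosen with earlier results of these data known, and no list was tested as a set. Genes named are the 3 given marks, the 12 largest rises and falls with more than 3 counts in each of the 4 libraries and at least 5 CPM in the higher group, the 4 highest in the other group among called genes with up to 3 counts in one group, for each list the 4 largest changes, the largest against the others' direction and 2 that did not pass, and the 5 highest and lowest differences in each other comparison. Mt1, Dio2, Srf and Actg1 are named for their promoters, Nr3c1, Hif3a and Cdc25c to complete a range or a count, and Sst and the fat cell genes under the limit for testing by list, all after their values were seen. Some genes that the rule names are not reported here. Medians of the 40 gene lists moved by at most 0.074 (log2) with genes at 0 in a group set to their floor, and no median of a marker list is given. Alternatives were other scalings, no low-count filter, DESeq2 1.42.0, the 4 libraries of a comparison alone, a replicate block, leaving out each library, and, chosen after seeing the data, leaving out the 3 libraries of low pseudogene share.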

Additional observations from a re-analysis of the deposited data

Results flagged for a closer look

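Among 298 named genes, 14 were called changed in opposite directions at day 2 and at day 7 of DM2 relative to day 0, with the difference between the days itself called in edgeR's quasi-likelihood test (log2 of day 7 over day 2 given). Some genes, Txnip, Tenm4 and Slc24a3 among them, were named for the size of this same difference. The count of 14 therefore does not show how common such turns are, and their share over all genes tested was not counted. The 7 that rose and then fell included Txnip, with a difference of -8.71 (60.2 and 71.4 CPM at day 0, 517 and 578 CPM at day 2, 1.20 and 1.4 CPM at day 7). The clock output gene Dbp followed with -3.67 (15.4 and 14.6, then 75.5 and 63.6, then 4.74 and 6.15 CPM). The lipid gene Acacb differed by -3.35, and the inhibitors of differentiation Id3 and Id2 by -3.03 and -2.70. The cyclin gene Ccnb2 differed by -2.07 and Tead1 by -1.21. Acacb, Id3, Id2 and Ccnb2 are among the genes whose rise at day 2 lost its call when a library was left out.

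The 7 that fell and then rose were led by Tenm4 with a difference of 7.09 (6.28 and 6.61 CPM at day 0, 1.04 and 1.45 CPM at day 2, 174 and 169 CPM at day 7) and by the sodium-calcium exchanger Slc24a3 with 5.50. Genes of amino acid stress and folate metabolism made up 3 of them, Chac1 at 3.45, Mthfd2 at 2.65 and Slc7a5 at 2.14. Ciart, a clock repressor, differed by 2.23 and the mitochondrial gene mt-Cytb by 1.24. At day 7 Mthfd2 read 313 and 333 CPM against 153 CPM in both day 0 libraries.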

How the results depend on the processing

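The count for DM2 at day 2 against day 0 (7935) stayed within 1.5 times under every alternative, from 6188 without day 0 replicate 1 upward (6635 without replicate 2, 6799 and 6845 without DM2 replicate 1 or 2), with 7495 in DESeq2, 6860 with only its 4 libraries, 7575 with no low-count filter and 6760 when the 3 libraries low in pseudogenes were dropped. The replicate block gave 7871 and moved no count over all genes by 1.5 times. Of list counts it moved 1 by more, the nuclear respiratory chain genes that fell (2 against 1). Replicate numbers were not taken as a pairing, since only 3 of 21 pairs of groups had deviations correlated over 0.1. Strong correlations of either sign joined 3 groups. They were 0.736 for day 0 with DM1 at day 2, -0.781 for day 0 with DM3 at day 2, and -0.657 for DM1 with DM3. Each of these groups held 1 library low in pseudogenes (day 0 replicate 1, DM1 replicate 1 and DM3 replicate 2, at 1.68, 1.6 and 0.837%). Whether the 2 patterns are linked was not tested. Against DM3 the 2602 calls became 494 with only the 4 libraries, 948 without the 3 low in pseudogenes (chosen after seeing the data) and 1124 to 4130 when a library was left out. The cause was not tested. Of the values for named genes, 3554 kept their side of the threshold, 75 lost and 27 gained a call, and 0 turned direction with a call. Of list counts 890 stayed within 1.5 times and 78, mostly small ones, did not. Depth limits genes near 3 counts per library, whose folds move most.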

Other observations

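Genes of antigen presentation and of the interferon response were among the lists not described above. Of their tested members 50 and 37.5% were called, against 49.7% of all genes tested. Of 14 genes of MHC class I and antigen presentation 6 rose and 1 fell in DM2 at day 2 against day 0. The peptide transporter Tap2 rose from 3.98 and 3.95 CPM to 11.1 and 9.77 CPM (log2 1.4 ± 0.13), while the proteasome subunit Psmb10 fell by 1.08 ± 0.22, and H2-K1 and H2-D1, which share reads with other class I genes, did not pass. Tap1 rose by 1.24 ± 0.36 and lost its call without day 0 replicate 2 (adjusted p 0.106) and without DM2 replicate 2 (0.0517). Of 16 interferon response genes 4 rose and 2 fell (1 fell without either day 0 library or DM2 replicate 2). The signal transducer Stat2 rose from 20.8 and 23.6 CPM to 51.7 and 54.6 CPM (1.26 ± 0.09) and the tethering protein Bst2 by 1.06 ± 0.18, while Ifit2 fell from 14.4 and 16.2 CPM to 5.37 and 6.03 CPM (-1.43 ± 0.14).

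Fewer respiratory chain genes were called than over all genes tested (49.7%), at 38.5% of the mitochondrially encoded and 28.6% of the nuclear ones. Of 13 mitochondrially encoded genes 3 rose and 2 fell. The cytochrome oxidase gene mt-Co1 rose from 8903 and 8428 CPM to 16020 and 17540 CPM (log2 0.95 ± 0.10), and mt-Nd1 fell by 0.63 ± 0.11. Of 28 nuclear genes of the chain 7 rose and 1 fell, and 12 rose and 0 fell without DM2 replicate 2, against 4 and 5 without DM2 replicate 1. Cox6a2, a muscle form of a cytochrome oxidase subunit, had 1 count at day 0 and a ratio of 24.9 (exact 95% counting interval 4.03 to 1030). Sdhc rose by 0.61 ± 0.14 and Ndufa1 by 0.60 ± 0.10.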
